A study of Mus musculus with 12 samples.

Results

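The unfolded protein response and the integrated stress response were followed through 32 genes in the lumbar spinal cord of mice. The genes were found by symbol, with GENCODE M21 names on the mouse build GRCm38, among the 33906 gene identifiers of the deposited tables. All 32 were found, and all 32 passed the filter on low values that left 18118 genes for testing. By role they were 13 chaperones and folding factors of the endoplasmic reticulum (ER), 6 genes of ER-associated degradation, 5 stress sensors and transcription factors, and 8 targets of the transcription factor ATF4. Poly(A) RNA was sequenced from 12 mice, 3 in each of 4 groups, and each library came from a separate mouse. Group C (C79, C84 and C85) held model mice of ALS (amyotrophic lateral sclerosis) given manganese-doped carbon dots, nanoparticles whose activity resembles superoxide dismutase, the enzyme that removes superoxide. Group E (E75, E77 and E90) held ALS model mice and was read as the group given edaravone, a radical scavenger used in ALS. The series text describes edaravone under a code D that no library carries, so E was assigned by elimination. Group P (P66, P67 and P74) held ALS model mice fed phosphate-buffered saline (PBS), and group H (H1, H2 and H4) held healthy wild-type mice. The transgene or strain of the model and the ages and doses were not given in the sources used here. The deposited values correspond to 16.8 to 19.8 M reads per library. Levels are given as FPKM, in which the reads of a gene are divided by its exon length and by the depth of the library, and differences as log2 differences of FPKM + 1 with their standard error (SE). Adjusted p-values come from limma over all 18118 genes, and a gene passed at an adjusted p under 0.05.

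The unfolded protein response adjusts the folding capacity of the ER when unfolded proteins build up there. It has 3 sensors in the ER membrane. IRE1, encoded by Ern1, splices the Xbp1 transcript so that it codes for an active transcription factor. PERK, encoded by Eif2ak3, phosphorylates the translation factor eIF2, which lowers protein synthesis and lets ATF4 be translated. ATF6 is cut in the Golgi to release its own transcription factor. XBP1 and ATF6 act on genes of ER chaperones and of ER-associated degradation, the route by which misfolded proteins leave the ER for the proteasome. ATF4 acts on genes of amino acid supply and on Ddit3, which encodes CHOP. The branch that runs through eIF2 and ATF4 also answers to kinases other than PERK, and is then called the integrated stress response. Markers of this response have been described in motor neurons of ALS models. Gene-level RNA does not measure the splicing of Xbp1, the translation of Atf4, the cleavage of ATF6 or the phosphorylation of eIF2. In bulk tissue, fewer cells of a type and less RNA per cell cannot be told apart.

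In P against H, the comparison of the ALS model with healthy mice, 6 of the 32 genes rose and 0 fell. The 6 were Edem1, Pdia4, Trib3, Pdia3, Ddit3 and Dnajc3, with log2 differences of 0.39 to 0.73. Over all genes tested, 12.2% rose and 3.26% fell in that comparison, and the share among the members, 18.8%, was not far above that background. The count was 2 without P66, 2 without P67, 3 without H4 and 11 without H2, and 2 when no filter on low values was applied. The difference was positive for 28 of the 32 genes (24 under median-ratio scaling of the libraries), with a median of 0.23, against a median of 0.07 over all genes, of which 61.4% had a positive difference. In 9 genes every P library lay above every H library, and in 1, Psat1, every P library lay below. The same held for 26.4% of all genes above and 8.88% below, and the members were therefore near the background on this measure.

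**Figure D1:**
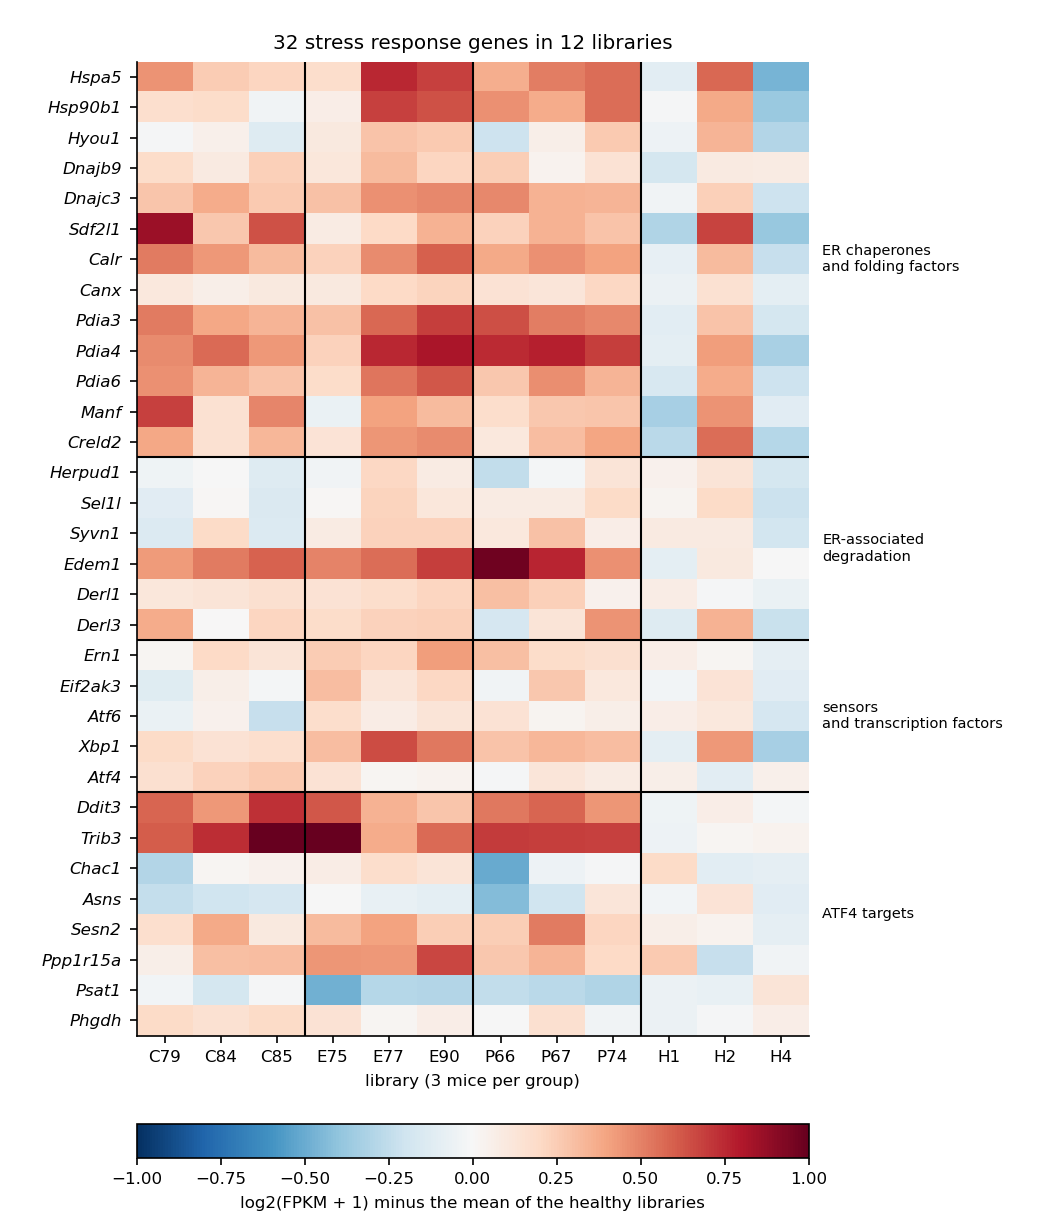
Level of each of the 32 genes (rows, by role) in each library (columns, groups C, E, P and H from left to right), as log2(FPKM + 1) minus the mean of the 3 healthy libraries; the colour scale ends at -1 and 1. Edem1, Ddit3 and Trib3 are raised in all 9 ALS model libraries, whereas most chaperones are also high in the healthy library H2.

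Among ER chaperones and folding factors, 3 of 13 rose in P and 10 did not pass, with a median difference of 0.36 and positive values in 13 of 13. Pdia4, a protein disulfide isomerase (chromosome 6, 47796141 to 47813430), had 40.1, 41.0 and 38.6 FPKM in P66, P67 and P74, against 22, 31.9 and 18.6 FPKM in H1, H2 and H4. Every P library was higher than every H library, and H2 stood nearest to them. The log2 difference was 0.73 ± 0.18 (adjusted p = 0.0213). Pdia3, the disulfide isomerase that works on glycoproteins held by calnexin and calreticulin (chromosome 2, 121413775 to 121438687), had 120, 109 and 107 FPKM in P, against 70.6, 92.9 and 67.5 FPKM in H. The groups did not overlap, and the difference was 0.54 ± 0.14 (adjusted p = 0.0224). Dnajc3, a co-chaperone of the ER that also inhibits PERK (chromosome 14, 118937976 to 118981697), had 30.9, 28.1 and 27.9 FPKM in P, against 21.3, 25.9 and 18.8 FPKM in H. It rose by 0.39 ± 0.11 (adjusted p = 0.0328), again with no overlap. Pdia3 overlaps Catsper2 on the opposite strand, whose mean was 3.29 FPKM. Without the strand setting of the counting, reads from any shared exonic positions cannot be told apart.

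The other 10 chaperones had positive differences that did not pass. Hspa5, which encodes BiP, the main ER chaperone and the partner that holds the 3 sensors inactive, had 114, 127 and 131 FPKM in P, against 82.2, 132 and 63.9 FPKM in H. H2 was above every P library, and the other healthy libraries were below every P library, so the difference of 0.48 ± 0.23 had an adjusted p of 0.165. Calr, the glycoprotein chaperone calreticulin and the highest member of all at a mean of 168 FPKM over 12 libraries, had 173, 182 and 176 FPKM in P and 125, 165 and 113 FPKM in H. These groups did not overlap either, but the difference of 0.42 ± 0.14 missed the threshold (adjusted p = 0.063). Hsp90b1, the ER member of the HSP90 family, differed by 0.46 ± 0.19 (adjusted p = 0.119), and Pdia6, a disulfide isomerase, by 0.36 ± 0.15 (adjusted p = 0.132). Sdf2l1 and Manf, small ER proteins induced by stress, and Creld2, a further stress-induced ER protein, differed by 0.25 to 0.28. Dnajb9, a co-chaperone that acts on IRE1 and BiP, and Canx, the membrane-bound lectin chaperone calnexin, differed by 0.14 and 0.15. Hyou1, an ER relative of HSP70, was nearly level, at 16.7 ± 2.8 FPKM in P and 16.4 ± 3.94 FPKM in H (SD, n = 3 each). Hsp90b1 and Manf also overlap other transcribed genes (Gm15344 at 4.53 FPKM, and Dcaf1 and Rbm15b at 4.32 and 5.95 FPKM), so their reads may be uncertain too.

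A single healthy library set much of the spread behind these values. H2 was the highest of the 3 healthy libraries in 13 of 13 chaperones, and H4 was the lowest in 11 of 13. Over all genes H2 was the highest healthy library in 26.4% and H4 the lowest in 34.5%. Averaged over the 13 chaperones, log2(FPKM + 1) was 5.41, 5.45 and 5.48 in P66, P67 and P74, against 4.96, 5.47 and 4.86 in H1, H2 and H4. H2 thus lay among the P libraries, and it was at or above the lowest P library in 9 of the 13 genes and above the highest in 5. The ratio of the highest to the lowest library of a group had a median of 1.13 over the chaperones in P and 1.6 in H. Without H2, 8 of the 13 chaperones passed (median difference 0.54), and Hspa5 (0.76, adjusted p = 0.0337), Calr (0.57, adjusted p = 0.0256), Sdf2l1 (0.62, adjusted p = 0.0367), Pdia6 (0.54, adjusted p = 0.037) and Creld2 (0.54, adjusted p = 0.0336) joined the 3 named above. Among all genes the number that passed fell to 1122 without H2, against 2807 with it. Without H4, or without H1, no chaperone passed (medians 0.25 and 0.28), and the same was true without P66 or without P67 (medians 0.35 and 0.3). The number of chaperones called therefore rested on single libraries, and it rested on the processing too. It was 0 with no filter on low values, 1 with median-ratio scaling and 1 with only P and H fitted. Of 13 alternatives, Dnajc3 passed in 5, Pdia3 in 6 and Pdia4 in 8. At least 12 of 13 chaperone differences were positive in every one of these fits. Neuron markers summed to 2120 FPKM in H2, against 1981 in H1 and 1605 in H4, and muscle markers to 215 FPKM in H2, against 2386 in H1 and 27.1 in H4. Markers of B and plasma cells summed to 23.4 FPKM in H2, the lowest of the healthy libraries, against 34.7 in H1 and 39.7 in H4. The part of such differences in the chaperone values was not tested.

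**Figure D2:**
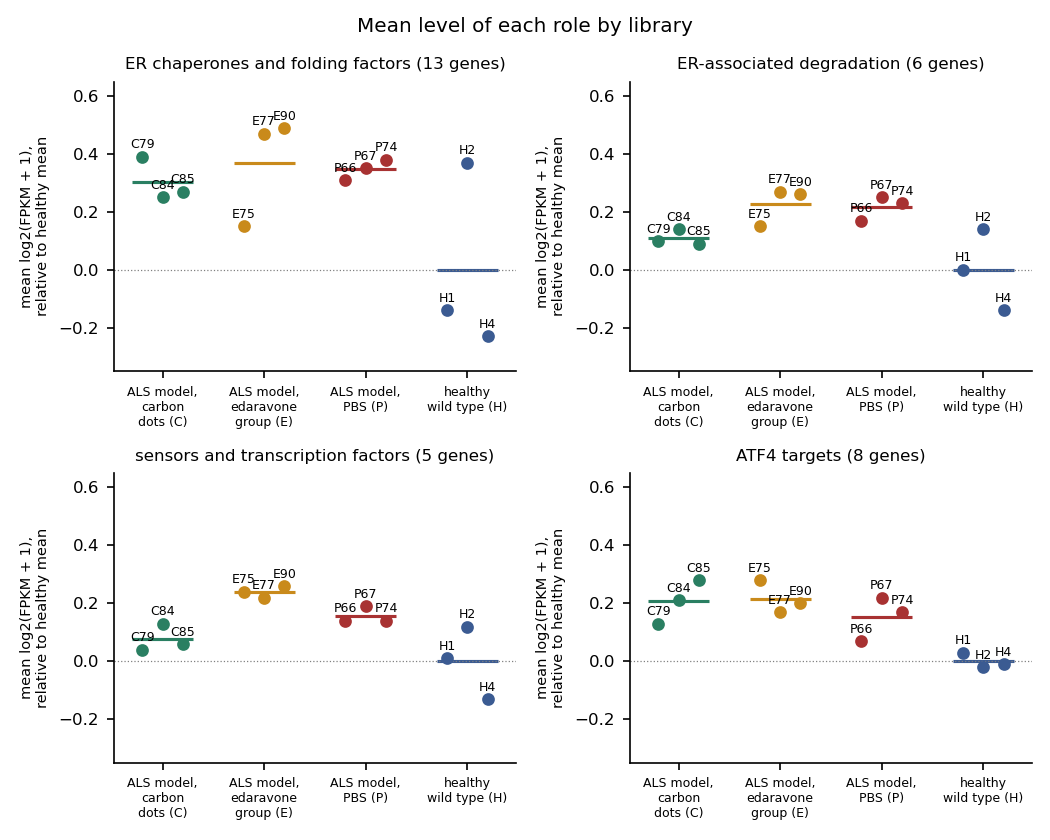
Mean log2(FPKM + 1) of the genes of each role in each library, relative to the mean of the 3 healthy libraries; points are libraries, lines are group means, and groups C, E, P and H run from left to right. In the chaperone panel H2 lies at 0.37, within the range of the P libraries (0.31 to 0.38), whereas in the ATF4 target panel the healthy libraries lie between -0.02 and 0.03.

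Promoter sequence was compared between the roles. The ER stress response element (ERSE) reads CCAAT, then any 9 bases, then CCACG, and is a site of ATF6 with the factor NF-Y. RefSeq windows of GRCm38.p6, from 250 bases before to 50 after a transcription start, were matched for 28 of the 32 genes. On either strand, the ERSE was found in 9 of these 28 genes, against 0.119% of 32851 windows. It was present in 7 of 11 matched chaperones and 2 of 5 matched degradation genes, and in 0 of 4 matched sensors and 0 of 8 ATF4 targets. The matches are printed because they are the feature that most matched chaperones hold and no ATF4 target holds in these windows; capitals mark the fixed letters, and each is read 5′ to 3′ on the strand named.
Hspa5 (chr2:34772025-34772043, plus strand): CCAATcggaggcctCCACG
Hsp90b1, distal (chr10:86705638-86705656, minus strand): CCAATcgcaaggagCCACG
Hsp90b1, proximal (chr10:86705533-86705551, plus strand): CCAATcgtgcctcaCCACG
Dnajc3 (chr14:118937827-118937845, plus strand): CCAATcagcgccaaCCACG
Calr (chr8:84847075-84847093, plus strand): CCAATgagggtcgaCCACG
Canx (chr11:50325800-50325818, minus strand): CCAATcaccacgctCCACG
Pdia6 (chr12:17266491-17266509, plus strand): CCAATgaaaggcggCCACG
Creld2 (chr15:88819520-88819538, minus strand): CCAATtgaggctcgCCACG
Syvn1 (chr19:6046532-6046550, plus strand): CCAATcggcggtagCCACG
Derl3 (chr10:75893242-75893260, minus strand): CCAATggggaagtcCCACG
The 9 spacer bases differ between all 10 matches. The first base of the match lay from 44 bases before the start in Syvn1 to 212 in Hsp90b1, in a search that reached 250 bases before it. These distances are from the RefSeq start, which differs from the GENCODE start of the gene by up to 120 bases among the genes with a match (in Hspa5, whose match begins 55 bases after the GENCODE start). In 24 of the 28 windows the transcribed bases were found near the start of a GENCODE transcript, and in Dnajc3, Pdia4, Trib3 and Xbp1 they were not. A related element, ERSE-II, reads ATTGG, then any base, then CCACG, and was found in Herpud1 alone among the members, against 0.0365% of all windows.
Herpud1 (chr8:94386377-94386387, plus strand): ATTGGgCCACG
The UPRE, TGACGTGG, to which XBP1 can bind, was in no member window and in 0.676% of all windows. Of the 9 genes with an ERSE, Dnajc3 rose in P. The 120 bases that precede its start are shown with the element in capitals, since it is the chaperone that passed and holds one. The RefSeq start used here lies 44 bases before the GENCODE start of the gene, from which the ERSE is 149 bases away.
Dnajc3 (chr14:118937812-118937931, plus strand): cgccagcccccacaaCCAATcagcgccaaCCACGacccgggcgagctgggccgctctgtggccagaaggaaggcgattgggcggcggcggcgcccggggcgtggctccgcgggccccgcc
Pdia3 and Pdia4, the other chaperones that rose, had neither ERSE nor ERSE-II in their windows. A match of letters is not evidence of binding, and the absence of one in 300 bases says nothing of the factor.

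**Figure D3:**
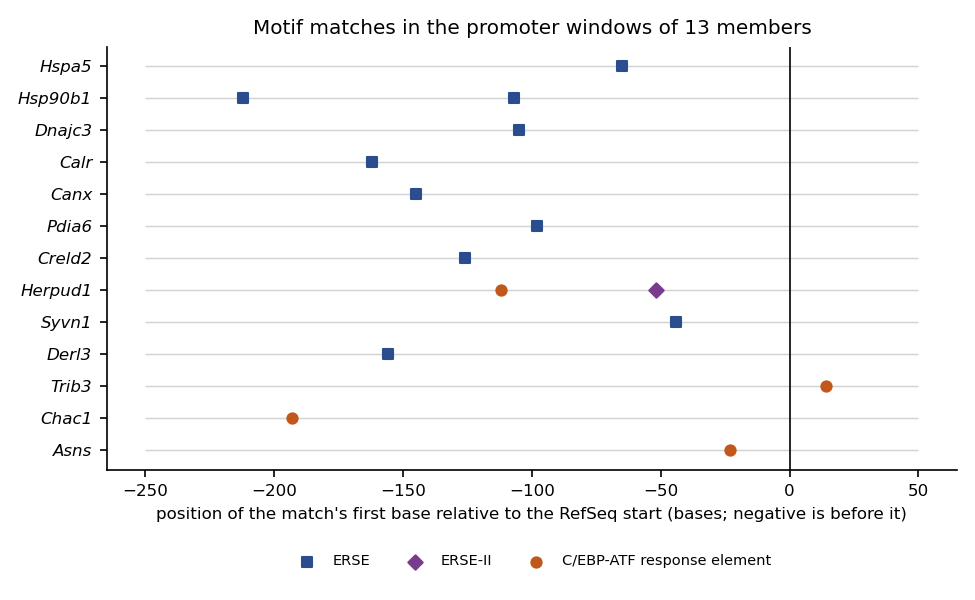
Position of the first base of each motif match relative to the RefSeq start (negative values lie before it) in the promoter windows of the 13 members that hold an ERSE, an ERSE-II or a C/EBP-ATF response element; grey lines are the windows searched. ERSE matches fall in chaperones and degradation genes, between 44 and 212 bases before the start.

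Among the 6 genes of ER-associated degradation, Edem1 rose in P (16.7%, against 12.2% of all genes) and the other 5 did not pass. The median difference of the 6 was 0.15. Edem1 encodes a lectin-like protein that pulls misfolded glycoproteins out of the folding cycle (chromosome 6, 108828641 to 108859356). It had 11.6, 9.89 and 7.84 FPKM in P66, P67 and P74, against 5.01, 5.89 and 5.40 FPKM in H1, H2 and H4. All P libraries were higher than all H libraries, the mean in P was 1.8 times that in H, and H2 did not stand apart. The difference of 0.73 ± 0.12 had the smallest adjusted p of the 32 genes (0.00313), and Edem1 passed under all 13 alternative settings and left-out libraries, with differences of 0.61 to 0.87. Derl1, part of the channel through which proteins leave the ER, had 38.2, 36.5 and 31.8 FPKM in P and 32.6, 30.6 and 29.4 FPKM in H, which overlapped slightly (0.19 ± 0.08, adjusted p = 0.124). Sel1l and Syvn1, the adaptor and the ubiquitin ligase HRD1 of the same complex, differed by 0.12 and 0.16. Syvn1 overlaps Mrpl49 on the opposite strand (16 FPKM), so its reads may be uncertain. Herpud1, a membrane protein of this complex and a common marker of ER stress, had 33.9 ± 4.54 FPKM in P and 34.9 ± 3.87 FPKM in H (SD, n = 3 each), a difference of -0.05 with a 95% interval of -0.3 to 0.2. Derl3, a relative of Derl1, was near the limit of detection, with 25 to 56 reads in P and 23 to 54 in H.

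None of the 5 sensors and transcription factors passed in limma, 1 had an unadjusted p under 0.05 (against 32.7% of all genes), and their median difference was 0.11. Ern1 had 3.01, 2.69 and 2.63 FPKM in P, against 2.40, 2.30 and 2.06 FPKM in H, with no overlap but an adjusted p of 0.131 (0.22 ± 0.09). Eif2ak3 (0.11 ± 0.10) and Atf6 (0.08 ± 0.10) overlapped between the groups. Xbp1 had 28.0, 29.0 and 28.4 FPKM in P, against 21.2, 31.1 and 17.9 FPKM in H. It followed the chaperones, with H2 above every P library, a difference of 0.31 ± 0.16 that did not pass (adjusted p = 0.196) and one of 0.52 that passed without H2 (adjusted p = 0.0234). Atf4 had 55.2, 60.4 and 58.8 FPKM in P, against 57.9, 51.5 and 57.5 FPKM in H, which overlapped. Its 95% interval ran from -0.12 to 0.24.

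The 8 targets of ATF4 did not move as a block. Ddit3 and Trib3 rose in P (25.0%, against 12.2% of all genes), and 6 genes did not pass. Differences were positive in 5 and negative in 3, against 61.4% positive over all genes, and the median was 0.15. Ddit3 encodes CHOP, a transcription factor associated with cell death under lasting stress (chromosome 10, 127290774 to 127296288). It had 18.6, 19.4 and 17.5 FPKM in P66, P67 and P74, against 12.2, 13.2 and 12.4 FPKM in H1, H2 and H4. The groups were far apart relative to their spread, the mean in P was 1.47 times that in H, and the difference of 0.52 ± 0.10 (adjusted p = 0.00839) passed under all 13 alternatives. Ddit3 overlaps Mars on the opposite strand, a gene with a mean of 17 FPKM, and any part of Mars reads in the value of Ddit3 cannot be told apart. Trib3, a pseudokinase induced by CHOP and ATF4 that inhibits AKT (chromosome 2, 152337422 to 152344032), had 1.01, 1.0 and 0.996 FPKM in P, against 0.196, 0.257 and 0.272 FPKM in H. These correspond to 36 to 37 reads per library in P and 7 to 10 in H. Trib3 thus passed the filter on low values only through the ALS model libraries, where it is high, and a filter at a mean of 1 FPKM removes it. The mean in P was 4.15 times that in H, the largest ratio among the members, while the log2(FPKM + 1) scale gives 0.69 ± 0.16 (adjusted p = 0.0183) because the gene is low. With a pseudocount of 0.1 the difference was 1.70. Trib3 did not pass without P66, without P67 or without H2, nor when no filter was applied, with adjusted p up to 0.0663.

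**Figure D4:**
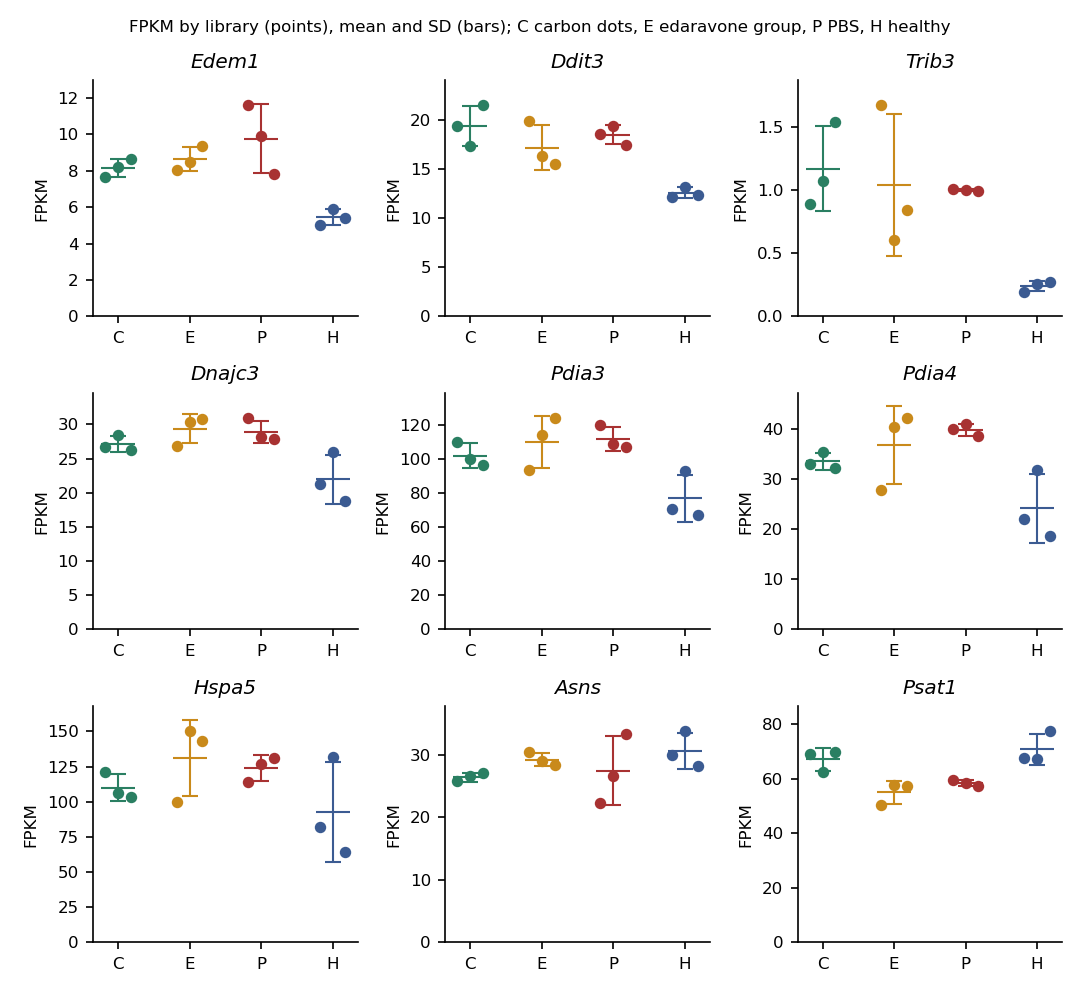
FPKM of 9 genes in each library (points), with the group mean and SD (bars), for groups C, E, P and H from left to right; each axis starts at 0. Edem1, Ddit3, Trib3, Dnajc3 and Pdia3 are separated from H in every ALS model group, for Dnajc3 and Pdia3 by a narrow margin. Dnajc3, Pdia3, Pdia4 and Hspa5 show H2 above the other healthy libraries, and Psat1 is lower in E and P than in H.

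The remaining ATF4 targets overlapped or fell short of the threshold. Sesn2, a stress-induced inhibitor of mTORC1 signalling, had 5.79, 7.21 and 5.64 FPKM in P, against 4.96, 4.88 and 4.38 FPKM in H (0.32 ± 0.11, adjusted p = 0.0566). Its groups did not overlap. Ppp1r15a, which encodes GADD34, the phosphatase subunit that reverses eIF2 phosphorylation, differed by 0.27 ± 0.13 (adjusted p = 0.167). Chac1, an enzyme that degrades glutathione, had 2.69, 4.05 and 4.20 FPKM in P, against 4.99, 3.87 and 3.92 FPKM in H, a difference of -0.19 ± 0.14. Asns, asparagine synthetase and a classic ATF4 target, had 22.3, 26.5 and 33.3 FPKM in P and 30.0, 33.7 and 28.1 FPKM in H. Neither gene separated the groups, and the 95% interval for Asns was -0.44 to 0.1. Phgdh and Psat1 encode the first and second enzymes of serine synthesis. Phgdh was level, at 35.5 ± 2.64 FPKM in P and 34.5 ± 1.59 FPKM in H (SD, n = 3 each). Psat1 had 59.4, 58.2 and 57.2 FPKM in P, against 67.7, 67.1 and 77.3 FPKM in H. Every P library was below every H library, but the difference of -0.27 ± 0.09 missed the threshold (adjusted p = 0.0625) and passed only under median-ratio scaling of the libraries (adjusted p = 0.0204).

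The binding site of ATF4 with C/EBP partners is the C/EBP-ATF response element, searched here as TGATGNAA on both strands. It was found in 4 member windows, against 3.97% of all windows, and 3 of the 4 genes are ATF4 targets. The 4 matches are printed to set the gene that rose beside those that did not.
Trib3 (chr2:152344039-152344046, plus strand): TGATGTAA
Asns (chr6:7693225-7693232, minus strand): TGATGAAA
Chac1 (chr2:119351049-119351056, minus strand): TGATGCAA
Herpud1 (chr8:94386317-94386324, minus strand): TGATGCAA
Chac1 and Herpud1 hold the same 8 letters, and the match of Trib3 begins 14 bases after the RefSeq start but 14 bases before the GENCODE start of the gene, so its place relative to the start depends on the annotation. Trib3 rose in P, whereas Asns, Chac1 and Herpud1 had differences of -0.17, -0.19 and -0.05 that did not pass. The core TGACGT, which the UPRE also contains, was in 3 member windows (Hspa5, Canx and Ppp1r15a), against 7.51% of all windows. In Ppp1r15a it forms a palindrome close to the start, in capitals below within the 120 bases that precede it.
Ppp1r15a (chr7:45526269-45526388, minus strand): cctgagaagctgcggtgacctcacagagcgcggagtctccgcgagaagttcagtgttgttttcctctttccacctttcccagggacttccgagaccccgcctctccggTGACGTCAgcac

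Chaperones and ATF4 targets were set against each other library by library. The mean log2(FPKM + 1) of the 13 chaperones minus that of the 8 ATF4 targets was 1.88, 1.77 and 1.85 in P66, P67 and P74. In the healthy libraries it was 1.46, 2.03 and 1.41 for H1, H2 and H4, so the range in H spanned that of P. It was 1.89, 1.68 and 1.62 in C79, C84 and C85, and 1.51, 1.93 and 1.93 in E75, E77 and E90. E75 was close to H1 and H4 in this measure, although its ATF4 targets had the highest mean of group E. In group E, E75 was the lowest library in 13 of 13 chaperones and 6 of 6 degradation genes, against 30.8% of all genes. The ATF4 targets followed neither H2, which was the highest healthy library in 2 of 8, nor E75, which was the lowest in 2 of 8. In group C, C85 was the highest library in 7 of 8 ATF4 targets and in 1 of 13 chaperones, against 28.8% of all genes.

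The groups C and E were each also set against H. These comparisons share the healthy libraries with P against H, and so are given side by side and not as support for one another. In C against H 3 of 32 genes rose and 0 fell, against 7.25% higher and 1.06% lower over all genes. In E against H 7 rose and 1 fell, against 11.1% higher and 2.15% lower. Edem1 had 7.64, 8.21 and 8.65 FPKM in C and 8.05, 8.48 and 9.35 FPKM in E, with differences from H of 0.51 (adjusted p = 0.0232) in C and 0.58 (adjusted p = 0.00879) in E, beside 0.73 in P. Ddit3 had 19.4, 17.4 and 21.5 FPKM in C and 19.9, 16.3 and 15.5 FPKM in E, with differences of 0.58 (adjusted p = 0.0062) in C and 0.42 (adjusted p = 0.0219) in E, beside 0.52 in P. Trib3 had 0.891, 1.07 and 1.54 FPKM in C and 1.67, 0.602 and 0.841 FPKM in E, with differences of 0.79 (adjusted p = 0.0134) in C and 0.68 (adjusted p = 0.0194) in E, beside 0.69 in P. These 3 genes passed in all 3 groups, and each of the 9 ALS model libraries was above each healthy library for each of them. That separation was not particular to them, since Dnajc3, Pdia3 and Sesn2 also showed it, and Sesn2 passed in none of the 3 groups. The share of all genes separated in this way was not computed. Trib3, moreover, passed the filter on low values only through these ALS model libraries. Dnajc3, Pdia3 and Pdia4 passed in E and P, with differences from H of 0.30, 0.42 and 0.49 in C, 0.41, 0.52 and 0.60 in E, and 0.39, 0.54 and 0.73 in P. Their adjusted p in C was 0.082 to 0.114, and the difference between C and P was not past the threshold for any of them.

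Ppp1r15a and Psat1 passed in E against H alone. Ppp1r15a had 6.31, 6.25 and 7.55 FPKM in E75, E77 and E90, against 5.46, 3.58 and 4.25 FPKM in H1, H2 and H4 (0.51 ± 0.13, adjusted p = 0.021). Psat1 had 50.2, 57.6 and 57.3 FPKM in E, and fell relative to H by 0.35 on the log2 scale (adjusted p = 0.0246). The groups did not overlap in either gene, and the difference between E and P did not pass for either. The counts against H were sensitive to single libraries. In C against H the count was 1 without C85 and 7 without H2, and in E against H it was 5 without E77, 3 without E90, 3 without H1 and 4 without H4. Xbp1 had 26.1, 25.3 and 25.8 FPKM in C and 28.5, 36.3 and 33.3 FPKM in E, and its difference of 0.50 in E just missed the threshold (adjusted p = 0.0573).

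**Figure D5:**
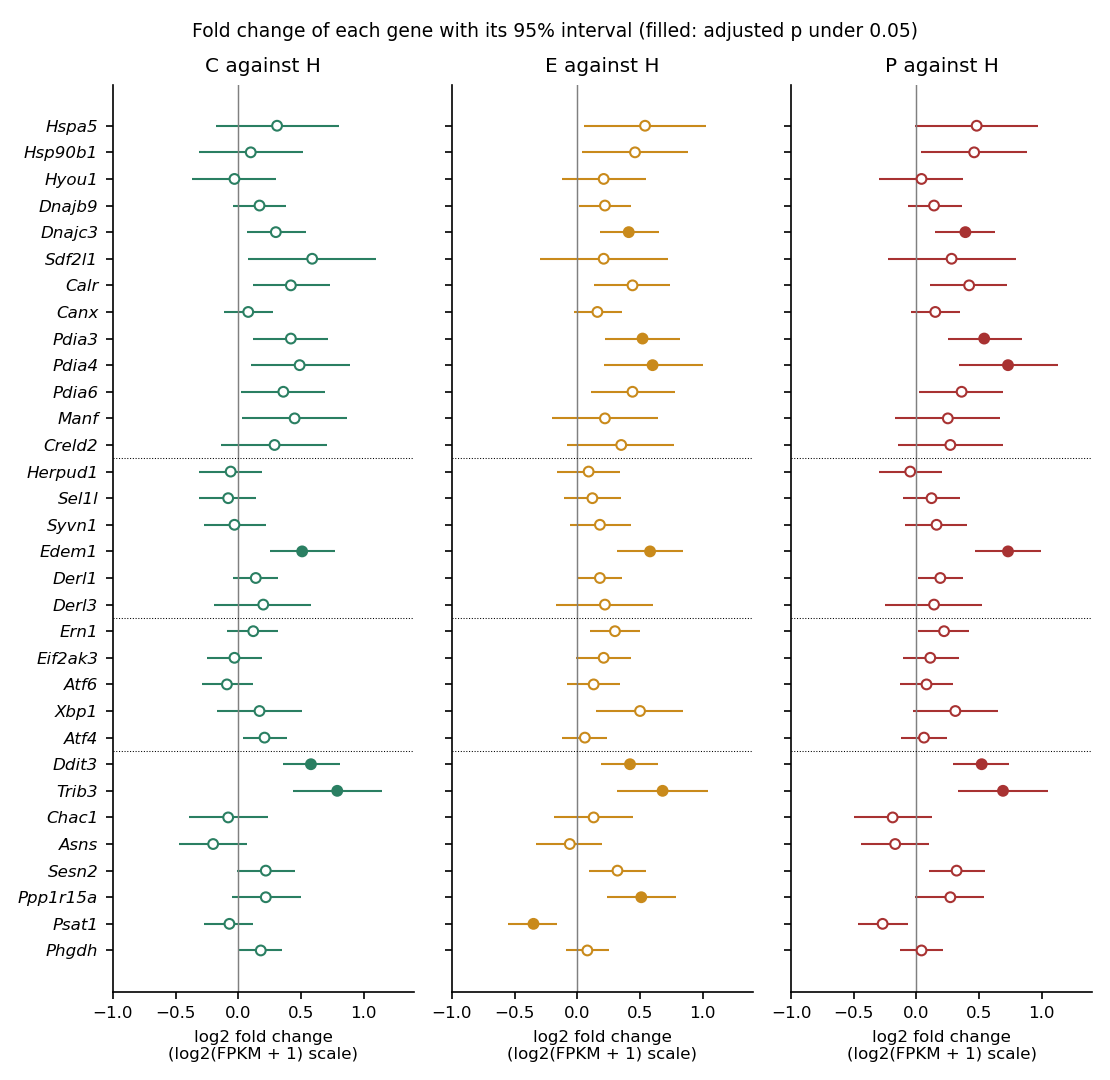
Log2 difference of each gene from the healthy group with its 95% interval, for C, E and P from left to right; filled points have an adjusted p under 0.05 and dotted lines separate the 4 roles. Edem1, Ddit3 and Trib3 are filled in every panel, and the intervals of the chaperones are wide; the 3 panels share the same healthy libraries.

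The comparison of C with P asks whether the carbon dots shift these genes within the ALS model. None of the 32 passed, against 0.00552% of all genes (1 gene), and none had an unadjusted p under 0.05 in limma, against 9.95% of all genes. The differences ran from -0.36 for Hsp90b1 to 0.30 for Sdf2l1, with a median of -0.05, 13 positive and 19 negative. In 5 genes, Hsp90b1, Canx, Pdia4, Sel1l and Xbp1, every C library lay below every P library, and in 2, Atf4 and Psat1, every C library lay above. The corresponding shares of all genes were 8.77% below and 8.33% above. Hsp90b1 had 53.8, 54.5 and 46.6 FPKM in C79, C84 and C85, against 65.9, 62.2 and 70.8 FPKM in P66, P67 and P74, a difference of -0.36 with a 95% interval of -0.77 to 0.06 (adjusted p = 0.568). Pdia4 had 33.1, 35.4 and 32.2 FPKM in C, against 40.1, 41.0 and 38.6 FPKM in P (-0.24, interval -0.64 to 0.15). The direction in both genes was toward the healthy level, but the intervals held 0. The same P libraries enter the rise over H and the difference of C from P. Of the 13 chaperones, 6 were higher in C than in P and 7 lower, and Sdf2l1 (0.30) and Manf (0.20) moved away from the healthy level. Psat1 had 69.1, 62.3 and 69.8 FPKM in C, against 59.4, 58.2 and 57.2 FPKM in P (0.20 ± 0.09, adjusted p = 0.503). Atf4 had 62.1, 65.3 and 66.7 FPKM in C, against 55.2, 60.4 and 58.8 FPKM in P (0.15 ± 0.08, adjusted p = 0.568). For the genes that rose in all 3 groups, the differences of C from P were -0.22 for Edem1 (interval -0.48 to 0.04), 0.06 for Ddit3 (interval -0.16 to 0.29) and 0.10 for Trib3 (interval -0.25 to 0.46). Each of these intervals held 0.

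In E against P, 0 of 32 genes passed, against 0.0% of all genes, and 1 had an unadjusted p under 0.05 in limma, against 4.91% of all genes. Differences had a median of 0.02. Every E library lay above every P library in 2 genes, Chac1 and Ppp1r15a, and below in 0, against 4.81% above and 4.2% below over all genes. Chac1 had 4.51, 4.90 and 4.73 FPKM in E, against 2.69, 4.05 and 4.20 FPKM in P, where P66 was the low library (0.31, adjusted p = 0.998). Ppp1r15a had 6.31, 6.25 and 7.55 FPKM in E, against 5.47, 5.79 and 5.17 FPKM in P (0.25, interval -0.03 to 0.52). In C against E, 0 of 32 passed, against 0.171% of all genes, and 4 had an unadjusted p under 0.05 in limma, against 11.0% of all genes. Every C library lay below every E library in 9 genes (28.1%), namely Hyou1, Sel1l, Ern1, Eif2ak3, Atf6, Xbp1, Chac1, Asns and Ppp1r15a, and above in 3, namely Atf4, Psat1 and Phgdh (9.38%). The shares of all genes were 10.3% below and 6.61% above. All 6 degradation genes and 4 of 5 sensors and transcription factors were lower in C than in E without passing, with the difference for Xbp1 at -0.33 (adjusted p = 0.474) and for Psat1 at 0.28 (adjusted p = 0.31). The median difference of the 32 genes was -0.1. It was 0.04 with the mean of caudal Hox genes, which mark the level of the cord, as a covariate.

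Beyond the 32 genes, 130 further genes of the same pathways were taken in 8 lists, and 21 rose and 2 fell in P against H (16.2% higher, against the 12.2% of all genes). In C against P, in E against P and in C against E, 0 of the 130 passed in limma, while 18, 4 and 21 of them had an unadjusted p under 0.05 in those 3 comparisons, against 9.95%, 4.91% and 11.0% of all genes. As shares of the 130, these counts lay above the background in C against P and C against E, and below it in E against P. Further stress targets of ATF4 and CHOP gave the largest changes, with 5 of 14 higher (35.7%). Atf3, a stress-induced transcription factor, had 12, 11.3 and 8.71 FPKM in P, against 3.21, 0.582 and 0.510 FPKM in H (2.42 ± 0.33, adjusted p = 0.00124). Nupr1, a small stress-induced nuclear protein, had 11.1, 7.61 and 3.46 FPKM in P, against 0.853, 0.759 and 0.529 FPKM in H (2.18 ± 0.37, adjusted p = 0.00409). Both were separated from H, although H1 was high for Atf3 and P74 low for Nupr1. Cebpg, a partner of ATF4 in DNA binding, rose by 0.45 ± 0.10 (adjusted p = 0.0141).

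Of 16 genes for amino acid synthesis and transport that ATF4 acts on, 5 rose (31.2%, against 12.2% of all genes) and 0 fell in P. Aldh1l2, a mitochondrial enzyme of folate metabolism, had 5.18, 4.35 and 3.68 FPKM in P, against 1.29, 1.25 and 1.30 FPKM in H, and rose by 1.24 ± 0.14 (adjusted p = 0.000536). Gpt2, which interconverts alanine and glutamate, rose by 0.32, and Slc1a4, a transporter of neutral amino acids, by 0.47. Of 13 genes of tRNA charging and export that are also ATF4 targets (12 cytosolic synthetases and the tRNA exporter Xpot), 0 passed in P, and 4 had an unadjusted p under 0.05 in limma, against 32.7% of all genes. The rise was thus uneven among ATF4 targets here as well, as it was for Asns, Psat1 and Phgdh.

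Among 24 further ER folding enzymes 4 rose in P (16.7%, against 12.2% of all genes), among them P4hb, the archetypal protein disulfide isomerase. The shares that rose in this list and in those that follow lay on both sides of the share of all genes. P4hb had 82.8, 78.1 and 68.2 FPKM in P, against 55.8, 52.2 and 46.1 FPKM in H (0.56 ± 0.12, adjusted p = 0.00953). For P4hb, H2 was not the highest healthy library. Txndc12, a thioredoxin-like ER protein, rose by 0.41, and Ppib, an ER prolyl isomerase, by 0.35. Of 16 genes of ER translocation and signal peptide removal 3 rose (18.8%), with Sec61a1, the channel subunit, at 9.86, 9.36 and 8.68 FPKM in P, against 6.27, 6.07 and 4.65 FPKM in H (0.64 ± 0.12, adjusted p = 0.00561). Ssr3 and Spcs3, subunits of the translocon-associated complex and of the signal peptidase, rose by 0.46 and 0.50. Of 22 further degradation genes 2 rose (9.09%) and 1 fell (4.55%, against 3.26% of all genes). These were Ubxn4 (0.37) and Edem2 (0.36) upward and the ubiquitin ligase gene Rnf5 (-0.79, adjusted p = 0.0353) downward. Creb3l2, an ER-bound transcription factor, rose by 0.35 and was the 1 gene of 11 further sensors and factors to pass (9.09%). Of 14 further eIF2 kinases, phosphatase subunits and eIF2B genes, 1 rose (7.14%) and 1 fell (7.14%). Eif2ak2, the kinase PKR, rose by 0.88 (adjusted p = 0.0272), and Eif2b4, a subunit of the exchange factor of eIF2, fell by 0.41 on the log2 scale (adjusted p = 0.00877).

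Levels of cell type markers also differed in the same comparison, and such levels do not separate cell number from RNA per cell. Markers of microglia and macrophages summed to 222 to 439 FPKM in P, against 77.4 to 94.4 FPKM in H, and 9 of 10 rose. For astrocyte markers the sums were 2261 to 3400 FPKM in P and 1329 to 1422 FPKM in H, and 6 of 10 rose. Neuron markers summed to 885 to 1401 FPKM in P, against 1605 to 2120 FPKM in H, and 7 of 10 fell, as did 4 of 10 motor neuron markers (53.5 to 115 FPKM in P, 99.9 to 209 FPKM in H). Oligodendrocyte markers summed to 4637 to 4956 FPKM in P and 5061 to 6463 FPKM in H, with 1 of 10 higher and 1 lower. Of 10 B and plasma cell markers 5 passed the filter, with sums of 23.1 to 28.6 FPKM in P and 23.4 to 39.7 FPKM in H. Markers of meningeal fibroblasts summed to 53.5 to 143 FPKM in P, against 15.9 to 36.1 FPKM in H (2 of 10 higher), and those of erythroid cells to 129 to 307 FPKM in P, against 403 to 2579 FPKM in H (3 of 7 tested lower). For Schwann cells and nerve roots 2 of 9 tested markers rose, with sums of 1848 to 2050 FPKM in P and 1857 to 2596 FPKM in H. That list shares Mbp with the oligodendrocyte list, so its sums do not measure nerve root content alone. No marker of these lists was listed at 0 in all libraries, and the tissue carried the neuron and oligodendrocyte markers of the labelled cord. The part of these shifts in the values of the 32 genes was not tested. The mean of caudal Hox genes, which mark the level of the cord, was lowest in H4 (0.35), C84 (0.61) and P66 (0.96), against 1.41 to 3.0 in the other 9 libraries. It also differed between groups. Every E library (2.49 to 3.0) was above every library of C (0.61 to 1.51) and of H (0.35 to 1.86). Cord level and group therefore cannot be told apart in E against H or in C against E. With that mean as a covariate 5 of the 6 genes still passed in P against H, and 2 of the 8 in E against H. In P against H the chaperones then had a median difference of 0.26, with 12 of 13 positive and 2 past the threshold.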

How the data were processed

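RNA of the lumbar cord was selected for poly(A) and made into strand-marked libraries, per the labels' protocols. The submitters' processing notes name cutadapt, HISAT2, featureCounts and GRCm38, without versions or a strand setting. The authors deposited FPKM values, in 1 table per group. No header states that unit; it follows from the values, of which 95.2 to 95.7% of those worth up to 50 reads fell within 0.02 of a whole number of reads once multiplied by GENCODE M21 exon length. Reads quoted in the text are these multiples. Symbols matched 33829 identifiers.

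Differences were tested with limma 3.58.1 (R 4.3.3) on log2(FPKM + 1), with 1 mean per group over all 12 libraries, trended and robust moderation, and Benjamini-Hochberg adjustment over 18118 genes. These had 10 reads or more, as scaled to a library of median depth, in 3 libraries or more, and 15 in all. All p-values are two-sided. The method was also run on simulated data in which genes varied independently, so that run does not cover a spread shared between genes, as in H2. The 32 genes and all lists were chosen with earlier results of these data known. All 32 could be named; from each further list, up to 3 genes of smallest adjusted p that passed. Promoters are RefSeq windows on GRCm38.p6. Longer stretches are shown for 2 genes, those of smallest adjusted p among chaperones and among ATF4 targets with a match before the RefSeq start. Alternatives changed the pseudocount, filter, scaling, groups fitted, moderation or a Hox covariate, or left out 1 library.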

Additional observations from a re-analysis of the deposited data

How the results depend on the processing

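In P against H, 6 genes passed. The same 6 passed with a pseudocount of 0.1 and with plain moderation. The count was also 6 with a filter at 1 FPKM, where Trib3 was not tested and Sesn2 passed only at the edge of the threshold. It was 5 with median-ratio scaling (4 higher, 1 lower) or with the caudal Hox mean as covariate. With only P and H fitted it was 4, and with no filter 2. It ranged from 2 to 11 when 1 library was left out (2 without P66, 2 without P67, 3 without H4 and 11 without H2). Edem1 and Ddit3 passed throughout. In C against H, 3 genes passed, and leaving out 1 library gave 1 to 7. In E against H, 8 passed, against 3 with no filter, 3 with median-ratio scaling, 1 with only E and H fitted and 2 with the Hox covariate, and leaving out 1 library gave 3 to 9. In C against P, E against P and C against E, 0 passed under every alternative. Median-ratio scaling moved the log2 difference of the median gene by -0.0906 in P against H, -0.0811 in C against H and -0.0996 in E against H; under it 24 of 32 differences in P were positive (median 0.14), with 12 of 13 for chaperones, 3 of 5 for sensors and 4 of 8 for ATF4 targets. The cause of these changes was not tested, beyond there being fewer samples in each fit that leaves one out. No paired analysis was possible because no replicate number is shared between groups. With 3 mice per group the median 95% interval of a member is wide, and values of Trib3 and Derl3 rest on few reads.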
